A study of Mus musculus with 6 samples.

Results

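The circadian clock core loop was followed as 9 genes (Arntl, also called Bmal1, Clock, Npas2, Per1, Per2, Per3, Cry1, Cry2 and Ciart) out of 57186 in the deposited count table, matched by gene symbol. The genes were chosen by their fold changes between the groups below, in these same libraries, so their levels and fold changes are given as a description and no test is drawn from them. RNA was sequenced in bulk from tumour cells sorted as CD45-negative, a gate meant to leave out leukocytes. The tumours had been grown under the skin of C57Bl/6J mice from MB49, a bladder carcinoma cell line of a male mouse. In the Y-KO group (3 libraries) the injected cells had lost the Y chromosome by CRISPR editing, and the Y-Scr group (3 libraries) was its CRISPR control. Tumours of both groups were taken at 500 mm3, and all 6 libraries carry 1 batch label. The labels do not state the hour of harvest, the age or sex of the mice, whether either line was 1 clone, or whether the replicates came from separate animals. The p-values below are thus set by differences between libraries that could be technical in part.

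In the mammalian clock, the proteins BMAL1 (gene Arntl) and CLOCK, or its relative NPAS2, bind together to E-box sequences and switch on the Per, Cry and Ciart genes. PER and CRY proteins gather in complexes that block BMAL1 and CLOCK, and the protein of Ciart, also called CHRONO, is a further repressor of the pair. A second loop runs through the REV-ERB repressors (Nr1d1, Nr1d2) and the ROR activators, which compete for sites in the Arntl promoter. In most mouse tissues Arntl mRNA peaks when Per mRNA is low, so the activator and its repressors run in opposite phases through the day.

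Promoter sequences show which members carry letters of the sites named above. RefSeq windows (GRCm38.p6; 250 bases before to 50 after a start site) were found for 8 of the 9 genes, all but Per2. Both strands were searched for 5 motifs: the E-box CACGTG, the E-prime box CACGTT, the D-box TTATGNAA bound by DBP, TEF, HLF and NFIL3, the REV-ERB and ROR element TAGGTNA (RRE), and TGACGT, part of the cAMP element (CRE). These letters were chosen with the windows in view. No matches of different motifs overlapped in these genes. The 5 windows printed show where letters of the activator's, the PAR bZIP factors' and the REV-ERB and ROR sites lie in members described below. Capitals mark the matches and each sequence runs 5′ to 3′ on the gene's own strand. They are chr3:95882179-95882478 (minus strand) for Ciart, chr10:85185005-85185304 (minus strand) for Cry1, chr11:69098699-69098998 (plus strand) for the first window of Per1, chr4:151044616-151044915 (minus strand) for Per3 and chr7:113207261-113207560 (plus strand) for the second window of Arntl.
Ciart: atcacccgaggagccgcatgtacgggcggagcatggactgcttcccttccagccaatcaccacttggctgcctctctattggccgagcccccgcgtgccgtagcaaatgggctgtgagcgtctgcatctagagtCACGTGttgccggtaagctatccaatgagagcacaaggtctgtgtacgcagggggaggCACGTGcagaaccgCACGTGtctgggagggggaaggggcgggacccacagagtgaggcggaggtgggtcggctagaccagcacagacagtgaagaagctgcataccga
Cry1: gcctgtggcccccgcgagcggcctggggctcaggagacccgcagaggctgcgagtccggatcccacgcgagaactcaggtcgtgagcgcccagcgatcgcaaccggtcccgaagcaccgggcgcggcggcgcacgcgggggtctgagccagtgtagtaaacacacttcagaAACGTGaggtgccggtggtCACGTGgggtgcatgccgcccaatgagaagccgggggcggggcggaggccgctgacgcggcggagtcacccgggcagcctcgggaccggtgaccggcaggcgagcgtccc
Per1: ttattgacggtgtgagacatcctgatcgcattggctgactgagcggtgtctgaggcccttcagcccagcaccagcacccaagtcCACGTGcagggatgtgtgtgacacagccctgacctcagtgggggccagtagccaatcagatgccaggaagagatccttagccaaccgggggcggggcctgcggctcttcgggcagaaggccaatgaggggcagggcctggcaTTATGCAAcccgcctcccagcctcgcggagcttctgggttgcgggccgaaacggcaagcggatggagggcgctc
Per3: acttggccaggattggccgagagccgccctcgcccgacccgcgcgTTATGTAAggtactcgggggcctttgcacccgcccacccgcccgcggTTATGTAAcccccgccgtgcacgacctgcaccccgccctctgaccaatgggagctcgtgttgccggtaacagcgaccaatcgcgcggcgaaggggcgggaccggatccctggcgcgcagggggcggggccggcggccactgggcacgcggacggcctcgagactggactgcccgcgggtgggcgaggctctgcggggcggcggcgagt
Arntl: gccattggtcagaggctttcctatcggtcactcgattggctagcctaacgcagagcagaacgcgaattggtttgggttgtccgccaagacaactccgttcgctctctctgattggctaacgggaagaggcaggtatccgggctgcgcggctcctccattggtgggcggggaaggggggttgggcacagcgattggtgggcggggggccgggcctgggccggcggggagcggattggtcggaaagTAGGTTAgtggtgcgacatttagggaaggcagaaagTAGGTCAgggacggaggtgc

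With the start site as position 0, Ciart held 3 E-boxes, starting at -116, -58 and -44, against 0.0883% of all 32851 windows of this length with 3 or more. Cry1 held 1 E-box at -60 and 1 E-prime box, read on the other strand, at -79. Per1 held 1 E-box at -166 and 1 D-box at -24 in its first window and 1 CRE at -132 in its second. Per3 held 2 D-boxes, at -205 and -158, where 0.161% of windows had 2 or more. The second window of Arntl held 2 RREs, at -6 and 30, where 0.557% of windows had 2 or more, and the RRE at 40 in its first window, which overlaps the second, is the same bases as that at -6. Cry2 held 1 E-prime box, at -166 on the other strand, and the windows of Clock and Npas2 held none of these letters. Any E-box was present in 7.15% of all windows, any E-prime box in 4.68%, any D-box in 3.38%, any RRE in 8.29% and any CRE in 7.51%. A match describes letters only, and says nothing of binding in these cells.

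**Figure D1:**
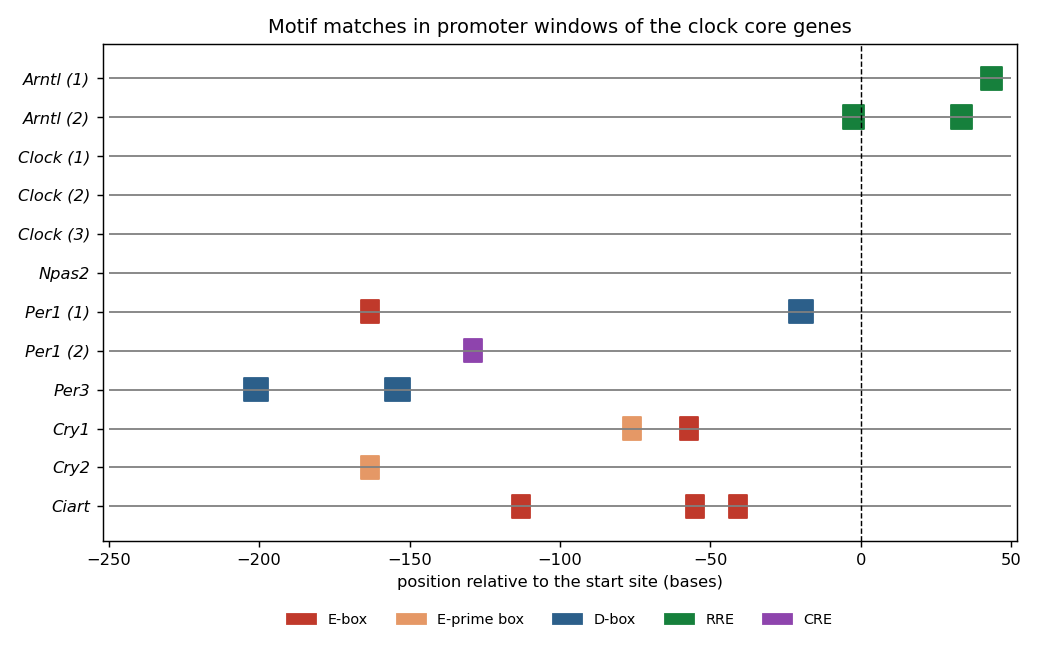
Positions of the motif matches in the promoter windows of 8 clock core genes, in bases from the start site (dashed line), 1 row per RefSeq window. Coloured boxes are matches drawn to length; the row of Ciart shows 3 E-boxes, that of Per3 shows 2 D-boxes and the second of Arntl shows 2 RREs.

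Across the series, library totals ran from 42040955 to 52951031 counts. The summed level of 4 Y-linked genes (Kdm5d, Uty, Ddx3y and Eif2s3y) was 20.4 to 47.3 CPM (counts scaled to library size) in Y-KO and 296 to 344 CPM in Y-Scr, in the direction of the labels. Y-KO replicate 3 stood apart from Y-KO replicates 1 and 2, which were close to each other, as were Y-Scr replicates 2 and 3. Transcripts of Ptprc, which encodes CD45, were present in every library, at 293, 298 and 134 CPM in Y-KO, against 521, 577 and 601 CPM in Y-Scr. Keratin transcripts of the carcinoma cells were abundant, with Krt8 at 1914, 1925 and 2131 CPM in Y-KO, against 1641, 1451 and 1414 CPM in Y-Scr. Epcam, another epithelial marker, was scarce, at a mean of 1.04 CPM in Y-KO, against 3.66 CPM in Y-Scr, and so was Krt5. Fewer cells of a type and less RNA per cell cannot be told apart in bulk samples.

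The activator Arntl was lower in Y-KO, and the repressor genes of the Per and Cry families and Ciart were higher. Arntl (chromosome 7, 112806672 to 112913333, GRCm39) had 6.75, 5.48 and 8.76 CPM in the Y-KO libraries and 24.1, 25.1 and 24.3 CPM in the Y-Scr libraries. Every Y-KO library lay far below every Y-Scr library, and the Y-Scr libraries were within about 1 CPM of each other. The means were 7.0 ± 1.65 CPM in Y-KO, against 24.5 ± 0.524 CPM in Y-Scr (SD, n = 3 each), a log2 fold change of -1.81 (SE 0.18), or 3.5-fold lower. Clock, the partner of BMAL1 and itself an acetyltransferase (chromosome 5, 76357715 to 76452639), had 36.4, 32.6 and 27.5 CPM in Y-KO, against 37.0, 42.3 and 49.3 CPM in Y-Scr. Its groups did not overlap, but the highest Y-KO and lowest Y-Scr libraries nearly met, and the log2 fold change was -0.42 (SE 0.14), short of a call. Npas2, which can stand in for CLOCK, had no counts in Y-KO and 0, 5 and 12 counts in Y-Scr, 17 in all. It was too low to be tested, and no fold is given. Reads and not pairs were counted, and 80.3% to 82.3% of counts from 2 to 20 in a library were even numbers, so these counts are not independent molecules.

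The Per genes, which encode the PERIOD repressors, were all higher in Y-KO. Per2 (chromosome 1, 91343704 to 91387046) had 41.7, 38.1 and 76.6 CPM in Y-KO, against 11.4, 10.3 and 11.5 CPM in Y-Scr. Its lowest Y-KO library was well above the Y-Scr range, and the log2 fold change was 2.24 (SE 0.26), 4.71-fold and the largest of the 8 fitted. Per1 (chromosome 11, 68986043 to 69000786), which also responds rapidly to hormones and cAMP, had 119.7, 119 and 228 CPM in Y-KO, against 67.7, 65.6 and 61.7 CPM in Y-Scr. Y-KO replicate 3 was far above the other Y-KO libraries, all of which were above Y-Scr, and the log2 fold change was 1.26 (SE 0.24). Per3 (chromosome 4, 151088109 to 151129122), the Per gene least needed for rhythm in mice, had 16.2, 16.9 and 27.5 CPM in Y-KO, against 5.57, 6.73 and 7.2 CPM in Y-Scr. Y-KO replicate 3 was again the highest and the groups did not overlap, with a log2 fold change of 1.64 (SE 0.23).

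Both cryptochrome genes and Ciart were higher as well. Cry2 (chromosome 2, 92233991 to 92264388) had 23.6, 24.2 and 33.3 CPM in Y-KO, against 9.32, 8.62 and 8.04 CPM in Y-Scr. Its log2 fold change was 1.64 (SE 0.17), with Y-KO replicate 3 again the highest. Cry1 (chromosome 10, 84967564 to 85020928), the stronger repressor of the pair, had 33.5, 28.0 and 17.8 CPM in Y-KO, against 12.9, 12.2 and 10.7 CPM in Y-Scr. Here Y-KO replicate 3 was the lowest of the Y-KO libraries, though still above Y-Scr, and the log2 fold change was 1.15 (SE 0.22). Ciart (chromosome 3, 95785815 to 95789563), whose window with 3 E-boxes is printed above, had 20.3, 27.0 and 16.6 CPM in Y-KO, against 7.11, 6.35 and 5.18 CPM in Y-Scr. Its log2 fold change was 1.78 (SE 0.21), with Y-KO replicate 3 the lowest of its group as for Cry1. Reads were counted without strand, so 295 exonic bases of Cry2 (4.67%) shared with D930015M05Rik on the other strand could not be told apart. For Arntl 33 bases (0.44%) were shared with Gm45355, and the other 7 genes shared no exonic base with another gene.

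**Figure D2:**
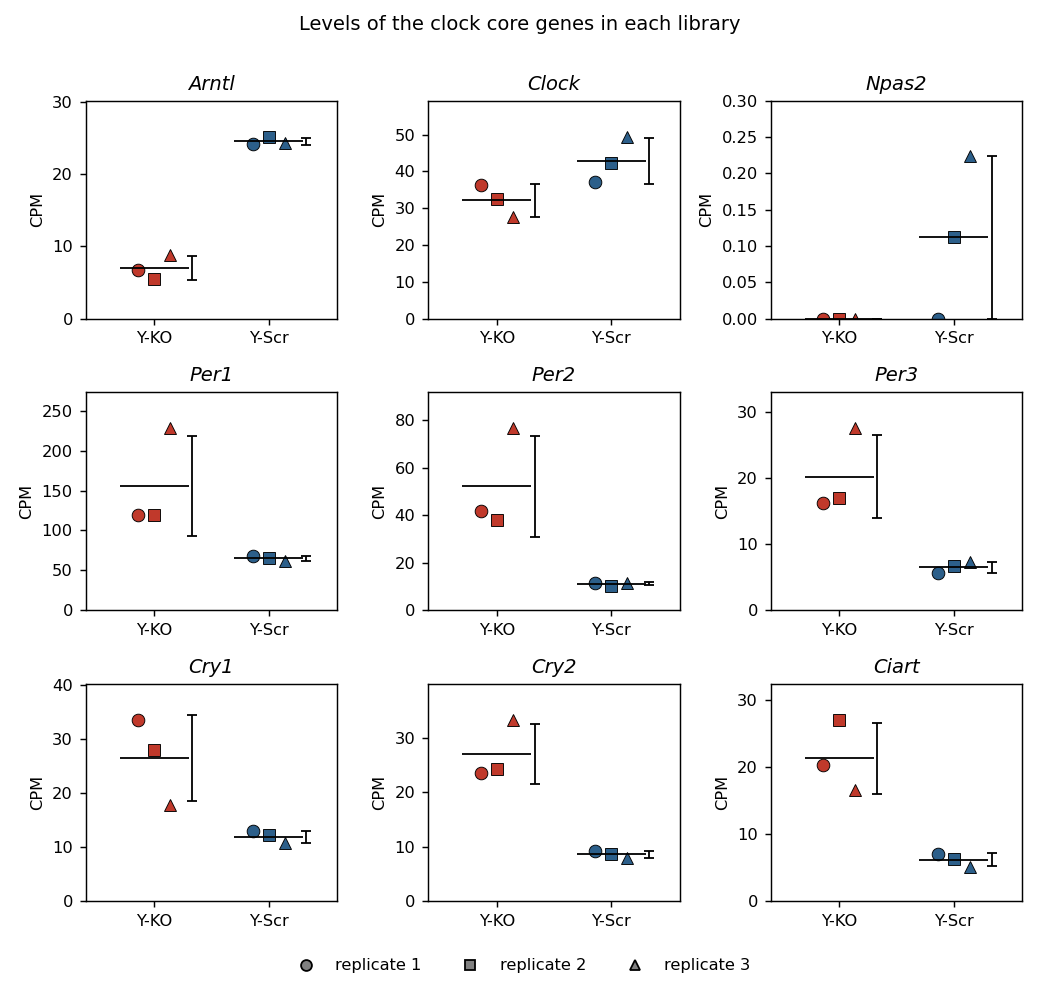
Level of each clock core gene in CPM (vertical axes, from 0) in each library, Y-KO left and Y-Scr right, with the group mean (line) and SD (bar), n = 3. Arntl sits at 5.48 to 8.76 CPM in Y-KO, against 24.1 to 25.1 CPM in Y-Scr, and the Per, Cry and Ciart panels run the other way.

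In the whole-table edgeR fit, 8 of the 9 genes passed the filter on low counts, and 7 of these 8 had an adjusted p under 0.05. Of all 17837 genes tested, 16.1% were called. The called members were 6 higher in Y-KO (7.82% of all genes were called higher) and 1 lower, Arntl (8.27% of all genes). The groups did not overlap for any of the 8 tested members, against 37.7% of all genes tested. Nothing is read from these counts, since this contrast was used to choose the members. Over all genes tested, log2 fold changes had a median of -0.03 and a median size of 0.31. By size of change, 3.83% of genes tested exceeded Per2, 5.9% exceeded Arntl, 12.8% exceeded Cry1 and 40.1% exceeded Clock.

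The same count was taken under other settings, each with its own share of all genes called. Without Y-KO replicate 1, 2 or 3 it was 7 members each time, where 9.22%, 9.52% and 33.7% of genes were called. Without Y-Scr replicate 1 it was 7 (9.26% of genes). Per1 and Cry1 were lost, leaving 5 members, without Y-Scr replicate 2 (5.55% of genes), without Y-Scr replicate 3 (5.57% of genes) and with the close pairs of libraries summed into 1 sample each (2.55% of genes). DESeq2 called 7 members (21.5% of genes), and the fit with library size scaling called 8, adding Clock (16.7% of genes).

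The Y-KO libraries differed among themselves in 2 ways within the loop. In Y-KO replicate 3, Per1 was 1.91 times, Per2 1.92 times, Per3 1.66 times and Cry2 1.39 times the mean of Y-KO replicates 1 and 2. For Cry1 the same ratio was 0.58 and for Ciart 0.703. Arntl stood at 1.43 times and Clock at 0.797 times that mean, so Arntl was not lowest in the library where the Per genes were highest. Without Y-KO replicate 3, the log2 fold changes were -2.00 for Arntl, 0.87 for Per1, 1.85 for Per2, 1.35 for Per3, 1.36 for Cry1, 1.46 for Cry2 and 1.93 for Ciart. No direction depended on that library.

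Levels of different genes can be compared only per length, here as CPM per kilobase of exon. In Y-KO the order was Per1 (27.6 ± 11.1), Ciart (9.42 ± 2.32), Per2 (8.9 ± 3.63), Cry1 (7.92 ± 2.38), Cry2 (4.28 ± 0.864), Clock (2.34 ± 0.325), Per3 (2.1 ± 0.659) and Arntl (0.93 ± 0.22), in CPM per kilobase (SD, n = 3). Ciart, Per2 and Cry1 overlapped in range there, as did Clock and Per3. In Y-Scr the order of the same quantity was Per1 (11.5 ± 0.546), Cry1 (3.58 ± 0.332), Arntl (3.26 ± 0.0696), Clock (3.12 ± 0.451), Ciart (2.75 ± 0.43), Per2 (1.89 ± 0.115), Cry2 (1.37 ± 0.102) and Per3 (0.677 ± 0.087). Cry1, Arntl and Clock overlapped in range in Y-Scr, and so did Clock and Ciart. Arntl was thus the lowest of the 8 in Y-KO and among the upper 4 in Y-Scr, while Per1 was highest in both groups and Npas2 was below all of them.

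Ratios taken within a library do not depend on its scaling. Per2 stood at 7.93, 8.93 and 11.2 times Arntl per length in Y-KO and at 0.609, 0.526 and 0.606 times in Y-Scr. Each Y-KO library had more Per2 than Arntl and each Y-Scr library had less. Clock stood at 2.96, 3.26 and 1.72 times Arntl in Y-KO and at 0.841, 0.925 and 1.11 times in Y-Scr, with the 2 partners near parity in Y-Scr. Cry1 stood at 2.69, 2.18 and 1.01 times Cry2 in Y-KO and at 2.62, 2.68 and 2.53 times in Y-Scr. For this ratio the groups overlapped and Y-KO replicate 3 alone was near 1. Among the Per transcripts summed per length, Per1 made up 71.4% ± 0.603 in Y-KO and 81.8% ± 1.39 in Y-Scr (SD, n = 3), and Per2 made up 23.0% ± 0.746 in Y-KO and 13.4% ± 0.942 in Y-Scr. These shares varied little between the Y-KO libraries, at 70.7% to 71.8% for Per1, although the summed Per level was 30.1, 29.3 and 56.3 CPM per kilobase in them.

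**Figure D3:**
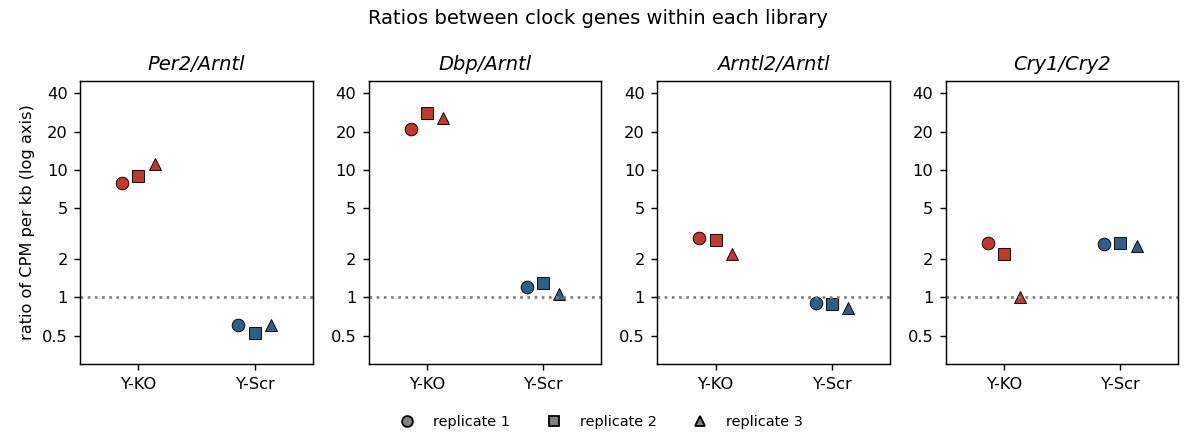
Ratio of 2 genes' CPM per kilobase in each library on a log axis, Y-KO left and Y-Scr right, with a dotted line at 1. Per2 over Arntl is 7.93 to 11.2 in Y-KO and 0.526 to 0.609 in Y-Scr, whereas Cry1 over Cry2 overlaps between the groups.

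Outside the core loop, 5 lists of other clock genes and relatives held 56 genes, of which 49 could be tested and 12 were called, 8 higher and 4 lower in Y-KO (16.1% of all genes were called). Their median log2 fold change was 0.01, beside -0.03 over all genes tested. With library size scaling, which shifts that second median to -0.17, the split was 4 higher and 6 lower (16.7% of all genes called, 730 higher and 2255 lower). The count was 23 without Y-KO replicate 3 (33.7% of all genes called), 3 without Y-Scr replicate 3 (5.57%) and 4 without Y-Scr replicate 2 (5.55%). With the close pairs summed, 2 of these genes, Dbp and Tef, were still called (2.55%).

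In the REV-ERB and ROR loop, both REV-ERB repressor genes were higher in Y-KO and the activator gene Rora was lower, by unequal amounts. Nr1d1, encoding REV-ERB alpha, had 57.9, 57.2 and 70.5 CPM in Y-KO, against 46.2, 43.9 and 47.0 CPM in Y-Scr. The rise was 1.35-fold (edgeR adjusted p = 0.027; log2 fold change 0.44, SE 0.11), a call lost with library size scaling. Nr1d2, encoding REV-ERB beta, rose 1.48-fold, to 95.1 ± 11.0 CPM in Y-KO against 64.4 ± 6.57 CPM in Y-Scr (edgeR adjusted p = 0.0142). Both log2 fold changes were below those of every Per, Cry and Ciart gene, a difference between genes that was not tested. Rora, the most widely expressed of the ROR activators in the mouse, had 2.39, 1.9 and 0.409 CPM in Y-KO, against 7.38, 7.09 and 7.38 CPM in Y-Scr. It fell 4.63-fold (edgeR adjusted p = 0.0208; log2 fold change -2.21, SE 0.51), and its lowest library was Y-KO replicate 3. Rorb, mainly a neural gene, was not tested, with 10 counts over the Y-KO libraries and none over the Y-Scr libraries. The calls of Nr1d1, Nr1d2 and Rora were all lost without Y-Scr replicate 1 or 3 and with the close pairs summed. Of 12 alternatives, the call was lost in 6 for Nr1d1, 3 for Nr1d2 and 4 for Rora.

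Among the output factors, the PAR bZIP activator genes Dbp and Tef rose, and both calls held in 12 of 12 alternatives. Dbp, a textbook E-box target of the clock, had 56.6, 61.4 and 89.1 CPM in Y-KO, against 11.5, 12.9 and 10.2 CPM in Y-Scr. The rise was 5.97-fold (edgeR adjusted p = 0.000123; log2 fold change 2.58, SE 0.19). Tef, its close relative, had 141, 133 and 191 CPM in Y-KO, against 43.4, 46.2 and 45.3 CPM in Y-Scr, and rose 3.44-fold (edgeR adjusted p = 0.000168). For both, Y-KO replicate 3 was the highest library, as for the Per genes. Per length, Dbp stood at 21.1, 28.2 and 25.5 times Arntl in Y-KO and at 1.2, 1.3 and 1.06 times in Y-Scr. Hlf, the other member of this family, was barely detected, with 8 counts in all in Y-KO, against 80 in Y-Scr (edgeR adjusted p = 0.154).

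The repressors that act beside the core loop did not pass the test with all libraries, and their values turned on Y-KO replicate 3. Nfil3, which competes with DBP at D-boxes, had 88.3, 82.2 and 39.1 CPM in Y-KO, against 86.5, 81.7 and 85.8 CPM in Y-Scr. Only Y-KO replicate 3 lay outside the Y-Scr range by more than a few CPM, and without it the log2 fold change was 0.01 in place of -0.28. Bhlhe41 (DEC2), an E-box repressor, had 86.0, 87.9 and 217 CPM in Y-KO, against 165, 156 and 160.3 CPM in Y-Scr. Y-KO replicates 1 and 2 were below Y-Scr and replicate 3 was above it; without replicate 3, Bhlhe41 was lower in Y-KO (edgeR adjusted p = 1.08e-07 at a log2 fold change of -0.88; with all libraries adjusted p = 0.59 at -0.30). Bhlhe40 (DEC1) had 277, 298 and 211 CPM in Y-KO, against 227, 227 and 246 CPM in Y-Scr (log2 fold change 0.17, SE 0.13). Without Y-KO replicate 3 it was higher in Y-KO (edgeR adjusted p = 0.00172 at a log2 fold change of 0.30). The fit without that library called 33.7% of all genes, and its Y-KO side was the close replicates 1 and 2 alone. With the close pairs summed, the log2 fold change of Bhlhe41 was -0.09 (edgeR adjusted p = 0.939). That of Bhlhe40 was then 0.11 (edgeR adjusted p = 0.823).

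**Figure D4:**
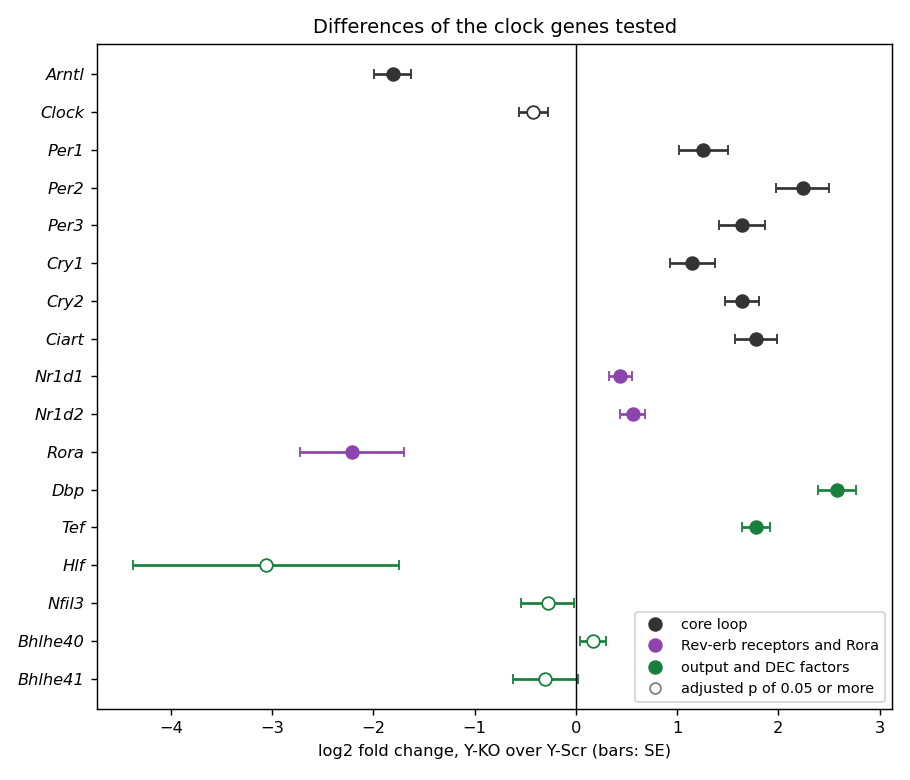
Log2 fold change of Y-KO over Y-Scr (horizontal axis, bars are SE) for genes of the core loop, the REV-ERB receptors, Rora and the output and DEC factors; open circles have an adjusted p of 0.05 or more. Dbp (2.58) and Per2 (2.24) lie farthest right, while Arntl (-1.81) and Rora (-2.21) lie left of 0.

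Among enzymes that set the stability of PER and CRY proteins, 16 kinase, ubiquitin ligase and deubiquitinase genes were listed and 15 were tested. Of these 0 were called by edgeR, with 1 at an unadjusted p under 0.05 and 1 called by DESeq2, where 16.1% and 21.5% of all genes were called. Without Y-KO replicate 3, 2 were higher and 1 was lower (33.7% of all genes called). The gene that DESeq2 called was Csnk2b, the regulatory subunit of casein kinase II, at 133 ± 6.1 CPM in Y-KO, against 104 ± 13.1 CPM in Y-Scr (log2 fold change 0.35, SE 0.1). Csnk1e, the kinase of the tau mutation in hamsters, had a log2 fold change of 0.17 (SE 0.1). The deubiquitinase gene Usp2, named here after its values were seen, had 1.61, 4.63 and 10.3 CPM in Y-KO, against 3.29, 2.24 and 3.35 CPM in Y-Scr. Its groups overlapped and it did not pass the test (edgeR adjusted p = 0.326; log2 fold change 0.89, SE 0.56).

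Of 16 cofactor genes 4 were higher and 1 was lower (7.82% and 8.27% of all genes). With library size scaling 1 was higher and 3 were lower, where the calls over all genes were 730 higher and 2255 lower. Ddb1, a subunit of CUL4 ubiquitin ligases, rose 1.29-fold to 804 ± 22.2 CPM in Y-KO against 623 ± 4.24 CPM in Y-Scr (edgeR adjusted p = 0.0061). Nono and Sfpq, RNA-binding partners of PER complexes, rose 1.21-fold and 1.32-fold, and the deacetylase gene Sirt1 rose 1.46-fold (edgeR adjusted p = 0.0388, 0.0417 and 0.0411). The lower one was the co-repressor Sin3a, outside the naming rule and picked out once its values were known, at 68.1 ± 3.86 CPM in Y-KO, against 84.9 ± 4.9 CPM in Y-Scr. Only the Ddb1 call held without each single library in turn, and it was lost with the close pairs summed; with the replicate number as a block 1 of the 5 calls was left.

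Among 13 relatives in the bHLH-PAS family, 8 were tested and 1 was lower (8.27% of all genes were called lower). It was Arnt2, a partner of hypoxia and dioxin receptors, at 2.36 ± 0.927 CPM in Y-KO, against 5.36 ± 0.578 CPM in Y-Scr (edgeR adjusted p = 0.0411). That call was lost without Y-KO replicate 1 and without each of the Y-Scr libraries. Arntl2 (BMAL2), the closest relative of Arntl, averaged 13.8 ± 1.86 CPM in Y-KO, against 16.2 ± 0.901 CPM in Y-Scr (edgeR adjusted p = 0.313; log2 fold change -0.24, SE 0.15). Per length it stood at 2.94, 2.8 and 2.21 times Arntl in Y-KO and at 0.909, 0.892 and 0.828 times in Y-Scr.

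Signals known to reach Per1 and Per2 from outside the loop were described by lists of their target genes. Of 11 glucocorticoid-induced genes 6 were higher (7.82% of all genes). Klf9, a factor that glucocorticoids and the clock both induce, had 12.1, 12.9 and 24.3 CPM in Y-KO, against 3.93, 3.16 and 2.62 CPM in Y-Scr, and rose 5.07-fold (edgeR adjusted p = 0.00188). Tsc22d3 (GILZ), an anti-inflammatory mediator of glucocorticoids, had 187, 189.8 and 445 CPM in Y-KO, against 65.8, 69.6 and 68.2 CPM in Y-Scr, and rose 4.04-fold (edgeR adjusted p = 0.00408). For both, as for Per1, Per2 and Per3, Y-KO replicate 3 was the highest library. The kinase gene Sgk1 rose 1.8-fold and the metallothionein gene Mt2 1.7-fold (edgeR adjusted p = 0.0157 and 0.0186). The summed level of the list was 1802, 1821 and 3115 CPM in Y-KO, against 1483, 1447 and 1440.1 CPM in Y-Scr. Much of the excess in Y-KO replicate 3 lay in the stress gene Ddit4, which was not called and stood at 274, 269.5 and 1005 CPM in Y-KO, against 450.2, 441 and 433 CPM in Y-Scr. Zbtb16, also not called, averaged 0.166 CPM in Y-KO, against 0.791 CPM in Y-Scr. Both were picked out after their values were seen. Without Y-KO replicate 3, 7 of these genes were higher and 2 lower (33.7% of all genes called). It was 2 higher without Y-Scr replicate 2 (5.55%), without Y-Scr replicate 3 (5.57%) and with the close pairs summed (2.55%). Whether a glucocorticoid signal was present, and any part of it in the Per levels, was not tested.

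**Figure D5:**
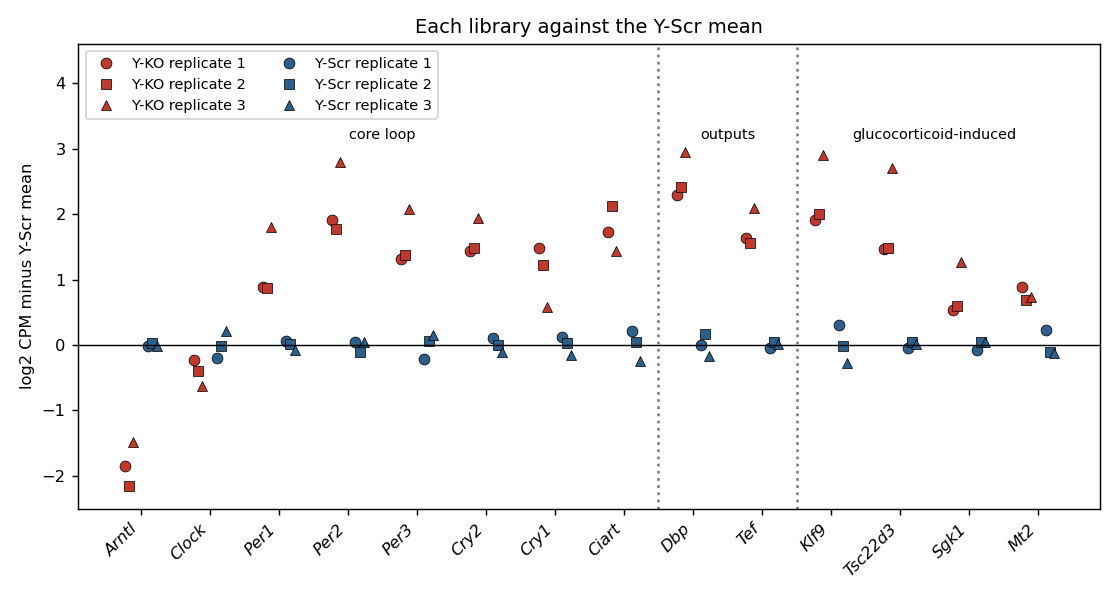
Log2 CPM of each library minus the Y-Scr mean (vertical axis) for core loop genes, 2 outputs and 4 glucocorticoid-induced genes; red marks are Y-KO libraries, blue marks Y-Scr, and shapes give the replicate. Y-KO replicate 3 (red triangles) is highest of all libraries for Per1, Per2, Per3, Cry2, Dbp, Tef, Klf9, Tsc22d3 and Sgk1 and lowest of its group for Cry1 and Ciart.

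Immediate early and cAMP-responsive genes were lower or did not pass the test. Of 11 tested, none was called higher by edgeR or DESeq2, with 2 higher at an unadjusted p under 0.05 in edgeR (Fosb and Ier2). With no filter on low counts edgeR called 2 higher and 3 lower (11.9% of all genes called). In the filtered fit 2 were lower (8.27% of all genes): Crem, encoding cAMP-response modulators, fell 1.54-fold (edgeR adjusted p = 0.0157) and the nuclear receptor gene Nr4a3 fell 2.03-fold (edgeR adjusted p = 0.0438). Both calls were lost without Y-Scr replicate 1 or 2. The summed level of the list was 1299, 1371 and 754 CPM in Y-KO, against 977, 968 and 977 CPM in Y-Scr. By this sum Y-KO replicate 3 was the lowest of all libraries. Sik1, not called and picked out after its values were seen, had its highest level there. It stood at 69.5, 72.7 and 126 CPM in Y-KO, against 69.4, 77.7 and 78.1 CPM in Y-Scr. Any part of the listed genes' signals in the Per levels was not tested. Without Y-KO replicate 3, 4 of these genes were higher and 3 lower (33.7% of all genes called). Of 7 genes that respond to temperature, 1 was higher (7.82% of all genes were called higher). It was the cold-inducible RNA-binding protein gene Rbm3, which rose 1.24-fold (edgeR adjusted p = 0.0285), a call lost under 8 of 12 alternatives. The heat shock gene Hspa1a did not pass the test (edgeR adjusted p = 0.0893; log2 fold change 1.19, SE 0.42), and without Y-KO replicate 3, 5 of the 7 were higher, in the fit that called 33.7% of all genes.

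The pattern over the 6 libraries was compared with 11406 named genes of at least 2 CPM on average, by the mean absolute difference of log2 CPM after centring each gene. Closest to Per2 were Klf9 (0.15), Tsc22d3 (0.158) and Tef (0.199), followed at rank 4 by Dbp (0.232). Cry2 (0.269) ranked 7 and Per3 (0.283) ranked 8 by the same measure, Ciart 48 and Per1 79. Genes were centred but not scaled, so a rank reflects the size of change as well as the shape over libraries. Per1 was close to Per2 in Y-KO replicate 3 over the mean of replicates 1 and 2 (1.91 and 1.92 times). Its log2 fold change was smaller, at 1.26 against 2.24. For Ciart that ratio was 0.703, at a log2 fold change of 1.78. Closest to Arntl were Klhl30 (0.123), the immunoglobulin heavy chain gene Ighm (0.128) and the integrin gene Itga6 (0.133). No other gene of the core loop or of its output factors was among the 100 closest to Arntl. These distances describe 6 libraries, of which some are close pairs, and carry no test.

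Markers of several cell types moved with the groups. The summed level of 14 T and NK cell markers was 158 to 288 CPM in Y-KO, against 894 to 953 CPM in Y-Scr, with 13 lower (8.27% of all genes were called lower). Of 13 pan-leukocyte markers 4 were lower, at a sum of 1631 to 3459 CPM in Y-KO, against 3959 to 4123 CPM in Y-Scr, and of 8 neutrophil markers 6 were lower, at 419 to 770.2 CPM in Y-KO, against 1543 to 1729 CPM in Y-Scr. Macrophage markers summed to 2377, 2370 and 1181 CPM in Y-KO, against 1347, 1248 and 1216 CPM in Y-Scr. Of these 10 markers, 6 were higher (7.82% of all genes were called higher). Fibroblast markers summed to 174, 179 and 621 CPM in Y-KO, against 997, 938 and 948 CPM in Y-Scr, with 3 of 10 lower. Of 8 epithelial markers 4 were higher and 1 was lower, at 3276 to 3468 CPM in Y-KO, against 2408 to 2736 CPM in Y-Scr. The 8 endothelial markers were low, summing to 23.8 to 40.2 CPM in Y-KO, against 38.3 to 45.1 CPM in Y-Scr. No marker of these 7 lists was at 0 in all libraries. Their part in the levels of the clock genes was not tested.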

How the data were processed

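The deposited table gives each gene's raw count in 6 libraries. The authors counted, per the file headers, with featureCounts 1.5.3 and Ensembl release 112 of GRCm39 with no other option, so by that version's defaults strand was ignored, reads and not pairs were counted, and multi-mapping or ambiguous reads were left out. Per the submitters' processing notes, FastQC 0.12.1, MultiQC 1.13, Trimmomatic 0.39 and STAR 2.5.2b were used. Libraries were poly-A selected with a stranded kit, per the labels' protocols. Gene length, in bases, is the deposited length column.

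Gene IDs were given symbols through a table that pairs them (51880 IDs, 90.7%). Groups followed the titles. The main test was edgeR 4.0.16 in R 4.3.3: filterByExpr (minimum count 10, minimum total 15) left 17837 genes, TMM gave the scaling, its quasi-likelihood test set Y-KO against Y-Scr in a model of group only, and a Benjamini-Hochberg adjusted p under 0.05 was a call. SE is the size of the log2 fold change divided by the root of F. CPM are counts per TMM-adjusted library size, and log2 CPM used a prior count of 2.

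Members and lists were chosen with earlier results of these data known. Named genes are the 9 members, all REV-ERB, ROR and output genes, up to 4 genes of smallest p per other list, and the 3 closest patterns to the members with the most positive and most negative change. Some genes under this rule are not reported here. The alternatives tried were library size or RLE scaling, DESeq2 1.42.0, a block for replicate number, no filter, leaving out each library and summing the close pairs. Plots used matplotlib 3.10.9.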

Additional observations from a re-analysis of the deposited data

How the results depend on the processing

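All log2 fold changes of the 8 tested core genes kept their direction in 12 of 12 alternatives. Arntl, Per2, Per3, Cry2 and Ciart were called in each, and Per1 and Cry1 in 9 of 12, being lost without Y-Scr replicate 2 or 3 and with the close pairs summed, so that 5 to 7 members were called when 1 library was left out. Clock was called with library size scaling and with no filter. Over all genes the count of 2871 became 1037 to 6393 when 1 library was left out and 496 with the close pairs summed. The 12 other clock genes became 3 to 23 when 1 library was left out and 2 with the close pairs summed. Summing leaves 2 samples a group. With library size scaling the median over all genes moved to -0.17 (log2), and the split of calls to 730 higher and 2255 lower, against 1395 and 1476. Same-numbered libraries did not deviate together (correlations of -0.01, -0.01 and -0.03 across genes). These values cannot show whether such libraries were handled together. With the replicate number as a block 2066 genes, 7 members and 8 other clock genes were called. Nfil3 had log2 fold changes of -0.48 to 0.01 when 1 library was left out, changing sign without Y-KO replicate 3; the cause was not tested. Genes at a few counts, such as Npas2 and Hlf, are limited by depth.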
